A study of Mus musculus with 7 samples.

Results

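The Hox genes described here are the 39 gene names of the deposited count table that follow the mouse Hox pattern, a cluster letter from a to d and a paralogue number, out of 52459 gene names in all. The rule uses the gene name and no measured value. They were read in 7 bulk RNA sequencing libraries of primary articular chondrocytes, the cartilage cells of the joint surface, isolated from the mouse femoral head and cultured in DMEM with 10% fetal bovine serum. The cells had received BMP2 at 100 ng/ml (3 libraries), TGFβ1 at 5 ng/ml (2 libraries, labelled TGFb) or vehicle (2 libraries) for 24 h. All groups shared the serum-containing medium, so the vehicle cells were not free of serum factors. The labels give neither the strain, sex or age of the mice nor whether replicates came from separate animals or cultures, so p-values measure only the spread between these libraries, which may be technical.

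Hox genes encode homeodomain transcription factors and lie in 4 clusters, HoxA on chromosome 6, HoxB on chromosome 11, HoxC on chromosome 15 and HoxD on chromosome 2. Genes at the same place in different clusters form a paralogue group, and in the embryo the order of the groups along the chromosome matches the order of their expression along the body and limb axes. In mouse limbs, group 10 genes are needed for the upper segment that contains the femur, group 11 genes for the middle segment and group 13 genes for the hand and foot. Hox proteins bind DNA together with TALE homeodomain partners of the Pbx and Meis families, and BMP and TGFβ ligands act through SMAD proteins.

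The libraries held 6747997 to 18047765 counts, with 10686885, 6747997 and 9796199 in BMP2 libraries 1, 2 and 3, 18047765 and 16271793 in TGFβ1 libraries 1 and 3, and 6885056 and 7387051 in vehicle libraries 1 and 2. All 14 chondrocyte markers examined were present in every group, and their summed level was 51090 to 58380 CPM (counts scaled to library size) with BMP2, 47810 to 54590 CPM with TGFβ1 and 59140 to 59220 CPM with vehicle. In the edgeR test described below, 2 of the 14 rose and 8 fell with TGFβ1, and 1 rose and 3 fell with BMP2. Among all tested genes, 30.4% rose and 25.8% fell with TGFβ1, and 5.33% rose and 6.15% fell with BMP2. Of 7 endothelial markers, whose sum was at most 1.99 CPM in any library, Cdh5 had no count anywhere, and of 7 muscle markers, whose sum was 8.29 to 38.4 CPM, Myod1 had none. The hind-limb factors Tbx4 and Pitx1 averaged 9.62 ± 0.579 and 9.47 ± 1.55 CPM in vehicle libraries (SD, n = 2), while the forelimb factor Tbx5 had 1 and 2 counts there. These are bulk samples, in which fewer cells of a type and less RNA per cell cannot be told apart.

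In vehicle-treated chondrocytes the Hox profile was led by HoxC genes of groups 8 to 10, HoxA genes of groups 9 and 10 and HoxD genes of groups 8 and 9. HoxB genes were low. Counting a gene as detected where its counts summed to at least 10 over the libraries of a group, 26 of the 39 Hox genes were detected in vehicle libraries: 11 of 11 HoxA genes, 3 of 10 HoxB genes, 7 of 9 HoxC genes and 5 of 9 HoxD genes. The HoxB genes detected were Hoxb4, Hoxb7 and Hoxb9. The HoxC genes not detected were Hoxc12 and Hoxc13, and the HoxD genes not detected were Hoxd1, Hoxd3, Hoxd11 and Hoxd12. Under the same rule 29 genes were detected with BMP2 and 27 with TGFβ1, sums that also draw on more counts than the vehicle sum.

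**Figure D1:**
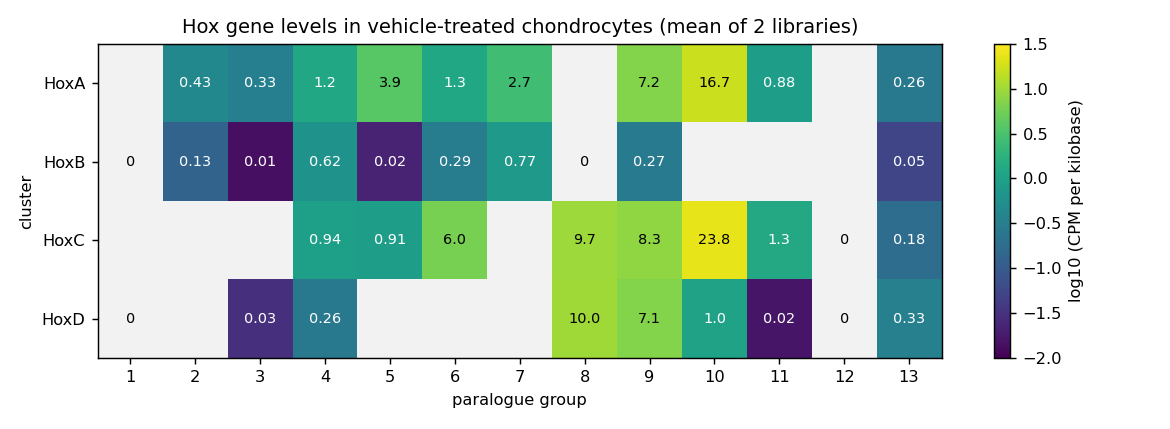
Mean level of Hox genes in the 2 vehicle libraries, by cluster (rows) and paralogue group (columns), in CPM per kilobase of the deposited gene length, with colour on a log10 scale. A 0 marks a gene with no counts, and an empty grey cell marks a place with no gene, or with a gene that is not shown. The highest cells are Hoxc10 at 23.8 and Hoxa10 at 16.7, and the HoxB row stays below 1.

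Levels of different genes are compared here as CPM per kilobase of the deposited gene length. Hoxc10 was the highest Hox gene in vehicle libraries, at 23.5 and 24.1 CPM per kilobase, and Hoxa10 followed at 17.3 and 16.1. Both belong to the paralogue group that patterns the femur segment, and 8.7% of the Hoxc10 exon length is shared with Hoxc5, so some of their counts could be split. Hoxd8 had 10.2 and 9.76 CPM per kilobase and Hoxc8 had 10.9 and 8.45, so the order of this pair was not separated by its spread. Hoxc9 followed with 8.20 and 8.42 CPM per kilobase. Hoxa9 had 7.57 and 6.73 and Hoxd9 had 6.07 and 8.06 CPM per kilobase, ranges that overlapped. Hoxc6 (6.001 ± 0.0836 CPM per kilobase), Hoxa5 (3.91 ± 1.12) and Hoxa7 (2.66 ± 0.520) completed the 10 highest (SD, n = 2 each), with no overlap between neighbours. From Hoxc11, at 1.28 CPM per kilobase, down to Hoxb4, at 0.621, every neighbouring pair overlapped, so adjacent places in the order of those 9 genes were not separated. With the length of the principal transcript in place of the deposited length, the 10 highest genes were the same, and Hoxd8 ranked at 1 because that transcript is 557 nt long against a deposited length of 2744 nt.

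Summed over genes, group 10 made up 38.7% ± 0.787 of the Hox signal per kilobase in vehicle libraries and group 9 made up 21.3% ± 1.79 (SD, n = 2). By cluster, HoxC held 47.6% ± 1.20 of the signal, HoxA 32.8% ± 2.42, HoxD 17.5% ± 1.14 and HoxB 2.03% ± 0.0805. All these shares use the deposited length, and the order of groups and clusters depends on it. With the principal transcript length Hoxd8 stood at 49.3 CPM per kilobase, against 23.8 for Hoxc10 and 21.3 for Hoxa10, which gives group 8 and HoxD larger shares. Groups 11 to 13 together came to 2.80% ± 0.0875, with group 11 at 2.03% ± 0.106 and group 13 at 0.769% ± 0.0187. Groups 1 to 3, which act in the hindbrain and neck, came to 1.29% ± 0.111. The whole Hox sum was 114 ± 6.40 CPM per kilobase with BMP2 (n = 3), 117 ± 2.51 with TGFβ1 and 107 ± 4.72 with vehicle (n = 2 each). The ranges of BMP2 and vehicle (107 to 120 and 104 to 111) overlapped, while that of TGFβ1 (115 to 118) lay above vehicle, with no test made on these sums. The order of TGFβ1 and vehicle depends on the TMM scaling factors of library size. These were 0.755 and 0.806 in TGFβ1 libraries 1 and 3 and 1.09 and 1.13 in vehicle libraries 1 and 2. The sums carry no length offset. HoxC held 51.7% ± 0.373 of the sum with BMP2 (n = 3), 45.8% ± 0.503 with TGFβ1 and 47.6% ± 1.20 with vehicle (n = 2 each). Group 10 held 30.8% ± 3.26 with BMP2, 40.2% ± 1.58 with TGFβ1 and 38.7% ± 0.787 with vehicle. Of the genes at the far end, Hoxc12 and Hoxd12 had no count in any of the 7 libraries, which allows up to 0.0415 CPM over all of them (3 counts; counting error only).

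For the treatment comparisons, edgeR's quasi-likelihood test was fitted to all genes, and 24 of the 39 Hox genes passed the filter on low counts. The 15 others (Hoxa2, Hoxa13, Hoxb1, Hoxb2, Hoxb3, Hoxb5, Hoxb6, Hoxb8, Hoxb13, Hoxc12, Hoxd1, Hoxd3, Hoxd11, Hoxd12 and Hoxd13) had no more than 16 counts in any library and received no test. Hoxb6 had 8, 11 and 7 counts in BMP2 libraries, 6 and 1 in TGFβ1 libraries and 5 and 4 in vehicle libraries. Hoxb5 had 0, 5 and 1 counts in BMP2 libraries, 6 and 5 in TGFβ1 libraries and 0 and 1 in vehicle libraries. Hoxb2 had 2, 3 and 6 counts in BMP2 libraries, 12 and 9 in TGFβ1 libraries and 5 and 2 in vehicle libraries. Set against depth, Hoxb2 was at 0.172 to 0.564 CPM with BMP2, 0.687 to 0.883 CPM with TGFβ1 and 0.239 to 0.669 CPM with vehicle. Hoxa2 had 4 to 10 counts in every library. Hoxb1, Hoxb3, Hoxb8, Hoxb13, Hoxd1, Hoxd3 and Hoxd11 had at most 4 counts in any library. A gene is said to have risen or fallen where its p, adjusted by the Benjamini-Hochberg method over all 13367 tested genes, was under 0.05.

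**Figure D2:**
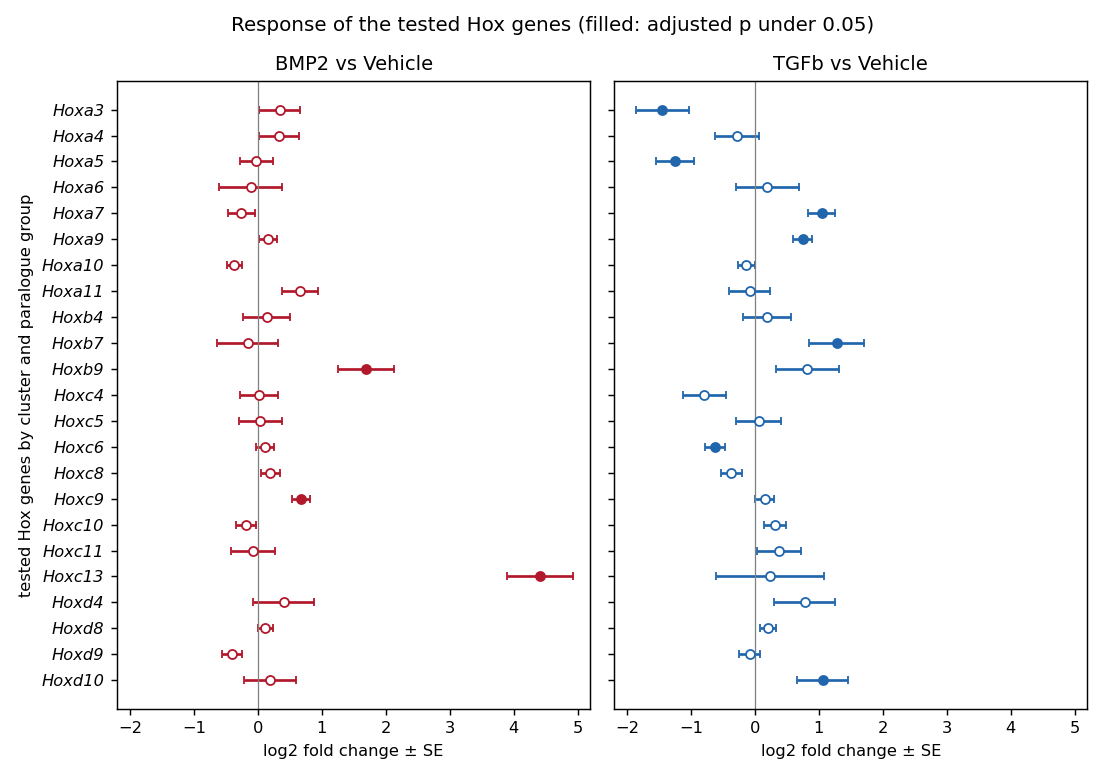
Fitted log2 fold change with its standard error for tested Hox genes, for BMP2 over Vehicle (left, red) and TGFb over Vehicle (right, blue), where TGFb is the TGFβ1 group; filled points passed an adjusted p of 0.05. Hoxc13 stands at 4.42 with BMP2, and the other BMP2 points lie between -0.40 and 1.69.

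With BMP2, Hoxc13, the HoxC gene of the limb-tip group that mouse genetics ties to hair and nail formation, rose far more than any other Hox gene. It had 117, 70 and 103 counts in the BMP2 libraries, against 3 and 4 counts in the vehicle libraries. Smaller rises included those of Hoxc9 and Hoxb9, and no Hox gene passed the test as lower. That is 4 of the 24 tested genes, 4 up and 0 down, where 11.5% of all tested genes changed (5.33% rose and 6.15% fell). At an unadjusted p under 0.05 there were 5 higher and 2 lower Hox genes, and DESeq2 called 2 higher and 0 lower. The median log2 fold change was 0.127 over the tested Hox genes and 0.00 over all tested genes.

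The 4 group 13 genes are related in the homeobox, the coding segment for the DNA-binding homeodomain, and their sequences are shown because reads that match several of them could be shared. They are printed here from the genome (GRCm38), 5′ to 3′ on the coding strand, with capitals at each base that none of the other 3 genes has at that place. The Hoxc13 segment lies in the coding part of exon 2 at chr15:102927210-102927389 (+), the Hoxa13 segment at chr6:52258928-52259107 (-), the Hoxb13 segment at chr11:96196020-96196199 (+) and the Hoxd13 segment at chr2:74669930-74670109 (+).
Hoxc13: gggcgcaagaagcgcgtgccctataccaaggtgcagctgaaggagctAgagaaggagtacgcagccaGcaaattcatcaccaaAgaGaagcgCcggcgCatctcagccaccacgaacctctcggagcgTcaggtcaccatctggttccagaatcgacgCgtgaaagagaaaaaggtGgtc
Hoxa13: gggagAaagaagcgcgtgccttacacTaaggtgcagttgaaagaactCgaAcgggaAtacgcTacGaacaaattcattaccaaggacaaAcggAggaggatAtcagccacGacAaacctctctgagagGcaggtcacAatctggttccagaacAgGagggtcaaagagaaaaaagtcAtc
Hoxb13: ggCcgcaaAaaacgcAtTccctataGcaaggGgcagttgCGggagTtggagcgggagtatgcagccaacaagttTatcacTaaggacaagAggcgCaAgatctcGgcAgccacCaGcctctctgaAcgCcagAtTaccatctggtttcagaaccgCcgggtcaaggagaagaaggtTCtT
Hoxd13: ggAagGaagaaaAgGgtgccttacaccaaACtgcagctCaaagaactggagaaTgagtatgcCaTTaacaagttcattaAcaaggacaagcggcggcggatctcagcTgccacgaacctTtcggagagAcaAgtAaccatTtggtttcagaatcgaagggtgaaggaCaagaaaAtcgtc
Over these 180 bases Hoxc13 was 77.2% identical to Hoxa13, 75.0% to Hoxd13 and 73.9% to Hoxb13. The longest stretch it shared with them was 14 bases with Hoxa13, 11 with Hoxb13 and 10 with Hoxd13. Read length is not stated in the labels.

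The Hoxc13 gene, at chr15:102921103-102928814 (+), overlapped no exon of another annotated gene. Its level was 10.0, 9.28 and 9.69 CPM in BMP2 libraries 1, 2 and 3, against 0.401 and 0.478 CPM in vehicle libraries 1 and 2. The BMP2 libraries stood close together and every one was above both vehicle libraries. The fitted log2 fold change was 4.42 with an SE of 0.516 (adjusted p 0.000400), and it stayed between 4.31 and 4.56 when any library was left out. The pooled counts gave a ratio of 22.0 with a 95% counting interval of 10.5 to 55.2, which covers counting error only. Hoxc13 passed the filter on low counts through the BMP2 libraries, so its place among the tested genes follows from its level there. The other 3 genes of its group had at most 16 counts in any library. Hoxa13 had 16, 4 and 5 counts with BMP2, against 7 and 3 with vehicle, and Hoxd13 had 5, 11 and 4 with BMP2, against 6 and 7 with vehicle. The group 13 sum was 4.65 ± 0.223 CPM per kilobase with BMP2 (n = 3) and 0.825 ± 0.0563 with vehicle (n = 2), and groups 11 to 13 together held 6.43% ± 0.381 of the Hox signal with BMP2 and 2.80% ± 0.0875 with vehicle.

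No other gene at the Hoxc13 end of the cluster was called with BMP2. Hoxc12, whose start lies 15.7 kb from that of Hoxc13, had no counts and was not tested. Hoxc11 averaged 2.48 ± 0.742 CPM with BMP2 and 2.59 ± 0.0642 CPM with vehicle, a log2 fold change of -0.07 (SE 0.343). Hoxc10 averaged 40.2 ± 8.14 CPM with BMP2 and 45.4 ± 0.803 CPM with vehicle, a log2 fold change of -0.18 (SE 0.160). Hotair, the noncoding RNA of the HoxC cluster, had 2, 6 and 3 counts with BMP2, against 3 and 1 with vehicle.

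Hoxc9, a group 9 gene at chr15:102976439-102985099 (+), had 34.1, 29.4 and 33.4 CPM in BMP2 libraries 1, 2 and 3, against 19.9 and 20.5 CPM in vehicle libraries 1 and 2. The groups did not overlap, and the log2 fold change was 0.68 with an SE of 0.137 (adjusted p 0.00968). The call was lost without vehicle library 1 (0.66, adjusted p = 0.0898) and without vehicle library 2 (0.70, adjusted p = 0.0862), although the size hardly moved. Hoxb9, a HoxB gene active in the trunk and limb, had 2.75, 2.39 and 1.69 CPM with BMP2, against 0.802 and 0.598 CPM with vehicle. Its log2 fold change was 1.69 with an SE of 0.437 (adjusted p 0.0310). Like Hoxc13, it passed the filter on low counts through the BMP2 libraries, so its place among tested genes follows from its level there.

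The call on Hoxb9 rested on few counts, 6 and 5 in the vehicle libraries, and DESeq2 did not make it (adjusted p = 0.211). For Hoxb9, the adjusted p was 0.0657 without BMP2 library 1, 0.0712 without BMP2 library 2, 0.127 without vehicle library 1 and 0.237 without vehicle library 2. The 4 highest Hox genes of vehicle cells did not pass the test with BMP2. Hoxa10 had 40.8, 47.1 and 39.3 CPM with BMP2, against 56.7 and 52.6 CPM with vehicle, a log2 fold change of -0.37 with an adjusted p of 0.0689. Its BMP2 libraries lay below both vehicle libraries. Hoxd9 had 10.98, 12.2 and 11.4 CPM with BMP2, against 12.97 and 17.2 CPM with vehicle, a log2 fold change of -0.40 with an adjusted p of 0.142. Hoxa11, of the group for the middle limb segment, had 3.17, 2.78 and 3.57 CPM with BMP2, against 2.01 and 2.03 CPM with vehicle, a log2 fold change of 0.66 with an adjusted p of 0.183. All its BMP2 libraries were above vehicle, and 35.0% of its exon length overlaps the antisense RNA Hoxa11os. Hoxa5 had 6.005 to 9.02 CPM with BMP2 and 5.86 to 8.83 CPM with vehicle, ranges that overlapped (log2 fold change -0.02, SE 0.256). Hoxa7 (-0.26), Hoxa9 (0.16), Hoxc6 (0.11), Hoxc8 (0.20) and Hoxd8 (0.12) each had an adjusted p above 0.4 with BMP2. A further 9 tested genes (Hoxa3, Hoxa4, Hoxa6, Hoxb4, Hoxb7, Hoxc4, Hoxc5, Hoxd4 and Hoxd10) had log2 fold changes of -0.16 to 0.40, each with an adjusted p above 0.5.

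**Figure D3:**
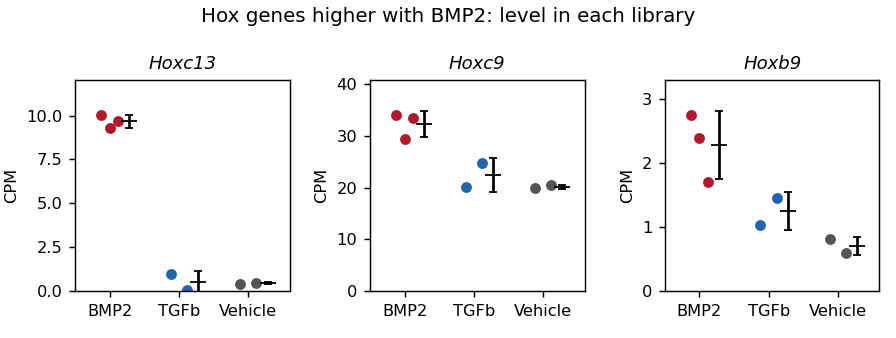
Level in CPM of 3 Hox genes that rose with BMP2, in each library of the BMP2, TGFb (TGFβ1) and Vehicle groups; bars give the mean and SD (n = 3, 2 and 2). In all 3 panels every BMP2 library is above both Vehicle libraries, and for Hoxc13 the BMP2 libraries are at 9.28 to 10.0 CPM.

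Markers of other cell types were read beside these genes. The summed level of 9 haematopoietic progenitor markers was 13.8 to 17.2 CPM with BMP2 and 5.22 to 6.46 CPM with vehicle, most of it from Gata2, which averaged 13.3 ± 2.29 CPM with BMP2 and 3.21 ± 0.373 CPM with vehicle. Of these 9, Flt3 had no count in either group, Tal1 had none with BMP2, and Kit and Gata1 had none with vehicle. Endothelial markers, 7 in all, summed to 1.54 to 1.99 CPM with BMP2 and 0.598 to 0.802 CPM with vehicle. Pecam1, also a blood cell marker and the only 1 of them tested, averaged 1.40 ± 0.254 CPM with BMP2 and had no count with vehicle. Cdh5 and Tie1 had no count with BMP2, and Cdh5 and Emcn had none with vehicle. The summed level of 13 leukocyte markers was 17.3 to 21.5 CPM with BMP2 and 24.3 to 33.6 CPM with vehicle. Osteoclast markers, 7 in all, summed to 101.5 to 141.5 CPM with BMP2 and 89.5 to 94.4 CPM with vehicle. In each of these groups 5 of the 7 were under 1 CPM in every library. Fibroblast and synovial markers summed to 10.1 to 14.5 CPM with BMP2 and 19.5 to 20.2 CPM with vehicle. Muscle markers summed to 8.94 to 14.6 CPM with BMP2 and 8.29 to 17.8 CPM with vehicle. The part of these cells in the Hox result was not tested.

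With TGFβ1, 3 HoxA genes from the middle of the cluster moved in different directions: Hoxa5 fell while Hoxa7 and Hoxa9 rose. Hoxb7 and Hoxd10 also rose, and Hoxa3 and Hoxc6 fell. That is 7 of the 24 tested Hox genes, 4 up and 3 down, where 56.2% of all tested genes changed (30.4% rose and 25.8% fell). The difference between these shares was not tested. The median log2 fold change was 0.169 over the tested Hox genes and -0.02 over all tested genes, and that of the Hox genes turned to -0.117 with an offset for transcript length and to -0.226 with one for the deposited gene length.

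Hoxa5, a trunk patterning gene also needed for lung development, had 2.58 and 3.59 CPM in TGFβ1 libraries 1 and 3, against 8.83 and 5.86 CPM in vehicle libraries 1 and 2. Both TGFβ1 libraries were below both vehicle libraries, and the log2 fold change was -1.24 with an SE of 0.297 (adjusted p 0.00470). Hoxa7 had 18.1 and 13.3 CPM with TGFβ1, against 8.69 and 6.58 CPM with vehicle. Its log2 fold change was 1.04 with an SE of 0.211 (adjusted p 0.00174), with no overlap between the groups. Hoxa9, known for its part in blood progenitors as well as in the limb, had 75.6 and 58.3 CPM with TGFβ1, against 42.3 and 37.6 CPM with vehicle. Its log2 fold change was 0.75 with an SE of 0.149 (adjusted p 0.00163). These 3 genes were called in the same direction under all 14 alternatives computed. The group 7 sum, Hoxa7 and Hoxb7, was 7.34 ± 1.55 CPM per kilobase with TGFβ1 and 3.42 ± 0.291 with vehicle (SD, n = 2 each).

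Hoxc6 had 9.05 and 9.70 CPM with TGFβ1, against 14.3 and 14.6 CPM with vehicle (log2 fold change -0.62 with SE 0.158, adjusted p 0.00647), a call that DESeq2 did not make (adjusted p 0.0626). Hoxa3, a gene of pharyngeal and neck patterning, had 0.589 and 0.840 CPM with TGFβ1, against 2.14 and 1.79 CPM with vehicle. Its log2 fold change was -1.45 with an SE of 0.408 (adjusted p 0.0117), with an adjusted p of 0.0785 without TGFβ1 library 1, 0.0636 without vehicle library 1 and 0.102 in DESeq2. Hoxb7 had 3.31 and 2.52 CPM with TGFβ1, against 0.936 and 1.44 CPM with vehicle (log2 fold change 1.28 with SE 0.428, adjusted p 0.0264). Without TGFβ1 library 1 its adjusted p was 0.137, without vehicle library 1 it was 0.172, without vehicle library 2 it was 0.0559, and in DESeq2 it was 0.206. Hoxd10, of the femur group, had 4.49 and 3.21 CPM with TGFβ1, against 2.54 and 1.20 CPM with vehicle (log2 fold change 1.06 with SE 0.398, adjusted p 0.0424). Its adjusted p was 0.206 without TGFβ1 library 1, with a log2 fold change of 0.80. It was 0.301 without vehicle library 2, with a log2 fold change of 0.60, 0.0524 without BMP2 library 3 and 0.226 in DESeq2.

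**Figure D4:**
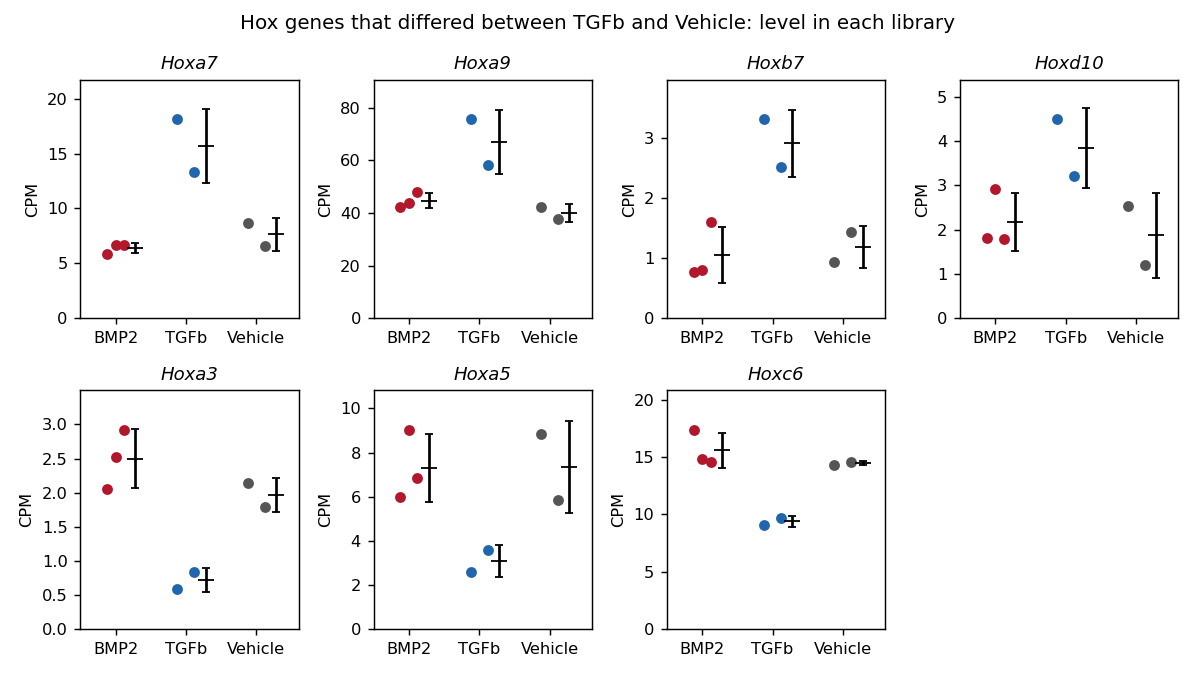
Level in CPM of the 7 Hox genes called between TGFb (the TGFβ1 group) and Vehicle, in each library of the BMP2, TGFb and Vehicle groups; bars give the mean and SD (n = 3, 2 and 2). In the 4 upper panels both TGFb libraries are above both Vehicle libraries, and in the 3 lower panels both are below them.

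The summed level of the 13 leukocyte markers was 57.8 to 62.8 CPM with TGFβ1 and 24.3 to 33.6 CPM with vehicle, with Cd3e at 0 in both. Of 7 such genes tested, 4 rose and 1 fell, where 30.4% of all tested genes rose and 25.8% fell, and under the length offset 0 rose and 2 fell. The 7 muscle markers summed to 29.9 to 38.4 CPM with TGFβ1 and 8.29 to 17.8 CPM with vehicle, with Myod1, Myog and Myh3 at 0 in both. Tnnt3, the 1 muscle marker tested, averaged 33.6 ± 5.63 CPM with TGFβ1 and 12.7 ± 6.41 CPM with vehicle (log2 fold change 1.39, adjusted p = 0.00246), and stood at -0.41 (adjusted p = 0.216) under the length offset. The 7 osteoclast markers summed to 122.0 to 125.4 CPM with TGFβ1 and 89.5 to 94.4 CPM with vehicle. In each of these groups 5 of the 7 were under 1 CPM in every library. Of 2 osteoclast markers tested, 1 rose and 0 fell, and 0 rose under the length offset or in DESeq2. The 1 that rose, Ctsk, had a log2 fold change of 0.42 (adjusted p = 0.0461). It stood at 0.046 under the length offset and at -0.41 under the deposited length offset. The 8 fibroblast and synovial markers summed to 19.4 to 26.3 CPM with TGFβ1 and 19.5 to 20.2 CPM with vehicle. The haematopoietic sum was 2.28 to 4.43 CPM with TGFβ1 and 5.22 to 6.46 CPM with vehicle, and the endothelial sum 1.15 to 1.40 CPM with TGFβ1 and 0.598 to 0.802 CPM with vehicle. The part of these cells in the Hox values was not tested.

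The 4 highest genes of the vehicle profile did not pass the test with TGFβ1 without a length offset. Hoxc10 had 59.8 and 52.7 CPM with TGFβ1, against 44.8 and 45.9 CPM with vehicle (log2 fold change 0.31 with SE 0.172, adjusted p 0.149). The log2 fold change of Hoxc10 was 0.11 under the transcript length offset and -0.21 under the deposited length offset. Hoxa10 had 49.2 and 50.6 CPM with TGFβ1, against 56.7 and 52.6 CPM with vehicle, a log2 fold change of -0.13 (SE 0.126). Hoxc8 had 19.4 and 22.8 CPM with TGFβ1, against 30.8 and 23.9 CPM with vehicle (log2 fold change -0.37, adjusted p 0.0758), and it was called lower without vehicle library 2 (-0.54, adjusted p 0.0409), under the transcript length offset (-0.57, adjusted p 0.0167) and under the deposited length offset (-0.58, adjusted p 0.0144). Hoxc4 had 1.55 and 1.22 CPM with TGFβ1, against 2.81 and 2.03 CPM with vehicle (log2 fold change -0.79, adjusted p 0.0689), and it was called lower under both offsets (adjusted p 0.0406 and 0.0251). Hoxb9, which rose with BMP2, had 1.03 and 1.45 CPM with TGFβ1, against 0.802 and 0.598 CPM with vehicle (log2 fold change 0.82, adjusted p 0.178). Hoxc9 had 20.2 and 24.7 CPM with TGFβ1, against 19.9 and 20.5 CPM with vehicle, ranges that overlapped. Hoxd4 (0.78), Hoxc11 (0.38) and Hoxd8 (0.21) had both TGFβ1 libraries above both vehicle libraries and were not called. Hoxa4 (-0.28), Hoxa6 (0.20), Hoxa11 (-0.08), Hoxb4 (0.19), Hoxc5 (0.06) and Hoxd9 (-0.08) had ranges that overlapped with vehicle. Of these, Hoxa4 (-1.24, adjusted p 0.00921) and Hoxd9 (-0.56, adjusted p 0.0225) were called lower under the deposited length offset, and Hoxa6 under both. Hoxc13 had 13 and 1 counts in TGFβ1 libraries 1 and 3, against 3 and 4 counts in vehicle libraries. Its pooled TGFβ1 ratio was 1.19 with a counting interval of 0.448 to 3.48, and the log2 fold change of 0.24 became -2.35 without TGFβ1 library 1.

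The TGFβ1 libraries also differed from vehicle by gene length, which touches these values. The median log2 fold change of all tested genes was 2.67 for genes of up to 1000 nt, 0.871 for 1000 to 2000 nt, 0.133 for 2000 to 3500 nt and -0.214 for longer genes. The same medians lay between -0.009 and 0.042 with BMP2. Of the tested Hox genes, 1 was in the shortest class, 5 in the next, 16 between 2000 and 3500 nt and 2 above. With an offset for principal transcript length and GC, 2 Hox genes were higher with TGFβ1 (Hoxa7 at 0.84 and Hoxa9 at 0.82) and 7 were lower, Hoxa5 at -1.42 among them. With an offset from the deposited gene length, added after the data were seen, 2 were higher and 8 lower. Hoxb7 at 0.45 and Hoxd10 at 0.92 were no longer called under the offset. Hoxa6, the shortest tested Hox gene at 874 nt, was not called without an offset (0.20) and fell by 2.20 with it. Hoxd8 stood at 0.21 without an offset, at -2.72 with that of its 557 nt principal transcript and at -0.10 with that of the deposited length. Over the 24 tested Hox genes, 14 log2 fold changes were above 0 without an offset. That count was 11 with the transcript length offset and 6 with the deposited length offset.

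**Figure D5:**
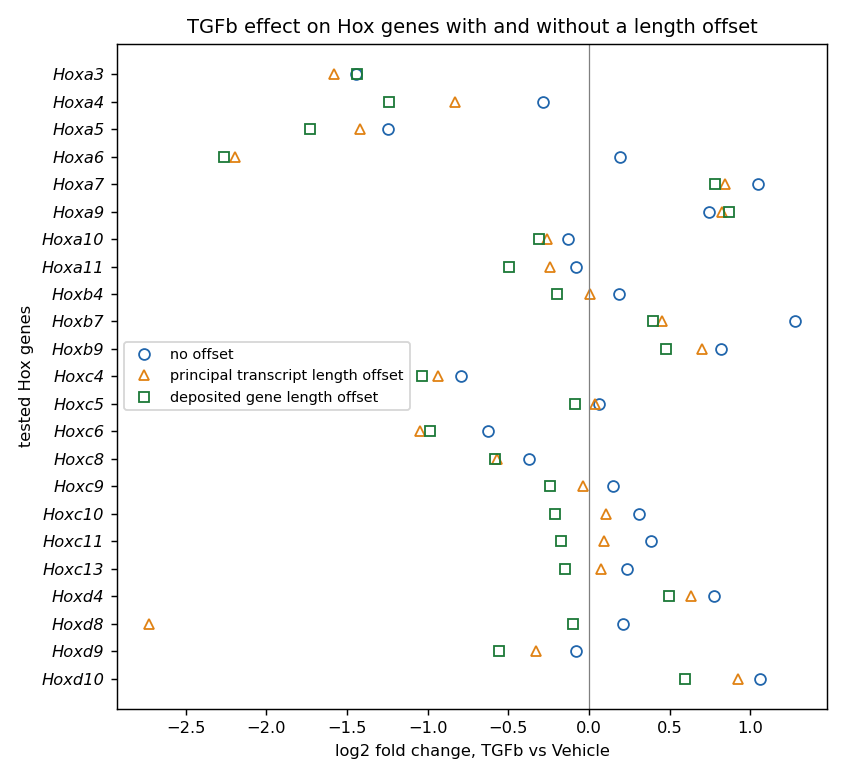
Log2 fold change of TGFb (the TGFβ1 group) over Vehicle for tested Hox genes without an offset (blue circles), with an offset for principal transcript length and GC content (orange triangles) and with an offset from the deposited gene length (green squares). Hoxa7 and Hoxa9 stay above 0 and Hoxa5 below 0 in all 3 fits. Hoxa6, Hoxb4, Hoxc5, Hoxc9, Hoxc10, Hoxc11, Hoxc13 and Hoxd8 change sign under an offset.

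The promoters of Hoxa5 and Hoxa9 are shown because these HoxA genes moved in opposite directions with TGFβ1. The RefSeq promoter table for GRCm38.p6, which covers 250 bases before to 50 bases after a gene's start, held 24 promoters of 22 of the 39 Hox genes. Both are printed 5′ to 3′ on the gene's strand with CG dinucleotides in capitals, Hoxa5 from chr6:52204538-52204837 (-) and Hoxa9 from chr6:52227321-52227620 (-).
Hoxa5: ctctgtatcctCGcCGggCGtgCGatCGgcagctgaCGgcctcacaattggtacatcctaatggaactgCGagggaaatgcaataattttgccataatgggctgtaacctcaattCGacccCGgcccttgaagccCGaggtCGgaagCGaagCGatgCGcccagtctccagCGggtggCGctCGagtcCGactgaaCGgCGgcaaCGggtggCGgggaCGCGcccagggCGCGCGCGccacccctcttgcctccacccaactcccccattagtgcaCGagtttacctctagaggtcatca
Hoxa9: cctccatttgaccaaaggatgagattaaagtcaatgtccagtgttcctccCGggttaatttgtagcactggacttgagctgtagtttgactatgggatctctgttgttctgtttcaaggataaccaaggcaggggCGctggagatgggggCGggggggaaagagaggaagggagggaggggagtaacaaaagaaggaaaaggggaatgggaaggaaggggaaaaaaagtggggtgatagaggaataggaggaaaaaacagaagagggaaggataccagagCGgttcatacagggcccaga
The Hoxa5 promoter held 29 CG dinucleotides and 61.7% G or C, and the Hoxa9 promoter held 4 and 49.7%. The medians over all 32851 promoters of the table were 7 and 52.7%, and over the 24 Hox promoters 14.5 and 57.7%. Neither printed promoter held any of the 5 motifs searched on both strands, which were GGCGCC and CAGAC for SMAD proteins, TGANTCA for AP-1, TGATNNAT for Hox and Pbx dimers, and TATAAA. The motifs do not contain one another. Of the other genes that rose with TGFβ1, Hoxa7 had a promoter in the table with 9 CG dinucleotides, 55.7% G or C and 1 CAGAC, and Hoxd10 had one with 22 CG dinucleotides, 62.7% G or C and none of the motifs. That Hoxa7 promoter, at chr6:52218524-52218823 (-), belongs to another start site than that of the principal transcript, which lies outside it at position 52217505. GGCGCC was in 20.8% of Hox promoters and 11.9% of all promoters, CAGAC in 37.5% and 49.6%, TGANTCA in 4.2% and 7.8%, TGATNNAT in 16.7% and 8.8%, and TATAAA in 16.7% and 13.6%. The table gave no promoter for Hoxc13, Hoxc9, Hoxb9, Hoxb7 or Hoxc6.

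BMP2 and TGFβ1 were also set against each other. The comparison shares its libraries with those against vehicle, and so is not independent of them. Of the 24 tested Hox genes 10 were higher with BMP2 and 5 were lower, where 61.4% of all tested genes differed (28.1% higher and 33.3% lower with BMP2). With the transcript length offset 13 Hox genes were higher and 2 lower, and with the deposited length offset 12 and 2. The median log2 fold change over the tested Hox genes was -0.033 without an offset, 0.782 with the transcript length offset and 0.583 with the deposited length offset. Hoxc13 had the largest difference among the Hox genes, 9.67 ± 0.378 CPM with BMP2 (n = 3) and 0.516 ± 0.622 CPM with TGFβ1 (n = 2), with a log2 fold change of 4.18, an SE of 0.439 and an adjusted p of 1.46e-05. Without TGFβ1 library 1 it was 6.76, and without TGFβ1 library 3 it was 3.32. Hoxa3 (1.79), Hoxa5 (1.22), Hoxc6 (0.74), Hoxc8 (0.57), Hoxc9 (0.53), Hoxa11 (0.74), Hoxc4 (0.81) and Hoxb9 (0.87) were among the others higher with BMP2 on the log2 scale. The lower ones were Hoxb7 (-1.44), Hoxa7 (-1.30), Hoxd10 (-0.87), Hoxa9 (-0.58) and Hoxc10 (-0.49). Under the transcript length offset Hoxb7 (-0.60, adjusted p 0.185), Hoxd10 (-0.75, adjusted p 0.0717) and Hoxc10 (-0.26, adjusted p 0.164) were no longer called, nor were they under the deposited length offset. Of these 15 calls, those that held included Hoxa3, Hoxa5, Hoxa7, Hoxa9, Hoxc6 and Hoxc13, each in every fit that left out a library and in every other alternative. Leaving out TGFβ1 library 1 left 8 Hox genes called, 7 of the 15 and Hoxb6, which was not tested with all libraries in. The calls lost were those on Hoxa11 (adjusted p 0.188), Hoxb7 (0.0601), Hoxb9 (0.266), Hoxc4 (0.0722), Hoxc8 (0.0558), Hoxc9 (0.0502), Hoxc10 (0.0968) and Hoxd10 (0.271).

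Several noncoding RNAs lie inside the Hox clusters, and reads from a gene and its antisense partner cannot be told apart where the counting strand is not given. Hoxd3os1, antisense in the HoxD cluster, had 14.2 and 10.6 CPM with TGFβ1, against 2.81 and 2.63 CPM with vehicle (log2 fold change 2.19 with SE 0.276, adjusted p 7.55e-05). Its exons overlap those of Hoxd3 and Hoxd4, of which Hoxd4 averaged 1.31 ± 0.0185 CPM with TGFβ1 and 0.774 ± 0.418 CPM with vehicle. Hoxaas3, antisense to Hoxa3 and Hoxa7, had 2.43 and 1.53 CPM with TGFβ1, against 0.936 and 0.718 CPM with vehicle (log2 fold change 1.26 with SE 0.457, adjusted p 0.0370). Exons on the other strand or of another gene cover 20.4% of the Hoxa7 exon length and 27.1% of that of Hoxa3. Hotairm1 averaged 2.58 ± 0.197 CPM with TGFβ1 and 1.39 ± 0.110 CPM with vehicle (log2 fold change 0.89, adjusted p = 0.0496), and its log2 fold change was -1.94 under the length offset. Neither call was firm: leaving out TGFβ1 library 1, vehicle library 1 or vehicle library 2 gave adjusted p-values of 0.246, 0.110 and 0.196 for Hoxaas3, and leaving out any library other than BMP2 library 1 gave 0.0552 to 0.189 for Hotairm1. Of the 5 noncoding RNAs tested, 3 rose and 0 fell with TGFβ1, and 0 rose and 0 fell with BMP2 in edgeR, where 30.4% of all tested genes rose with TGFβ1. Under the length offset 2 rose and 1 fell with TGFβ1. At an unadjusted p under 0.05 those counts were 4 and 0 with TGFβ1 and 2 and 0 with BMP2, and in DESeq2 they were 1 and 0 with TGFβ1 and 0 and 0 with BMP2.

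The TALE partners of Hox proteins were lower with TGFβ1 in 4 of 9 tested genes and higher in 1, a share close to the 56.2% of all tested genes that changed, with a median log2 fold change of -0.132 against -0.02 over all tested genes. DESeq2 called 2 lower and 1 higher. Meis1 (-1.03), Pknox1 (-0.51) and Meis2 (-0.40), homeodomain genes of this class, were among those that fell, and Pknox2 rose (0.91, adjusted p = 0.00593). Without vehicle library 1 Meis1 had an adjusted p of 0.0501, and without vehicle library 2 Meis2 had 0.0793. Meis2 stood at 0.10 with the deposited length offset, and Pknox1 had an adjusted p of 0.0641 under the principal transcript offset.

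Genes of the Polycomb and Trithorax systems, which hold Hox genes silent or active, were lower with TGFβ1 in 15 of 24 and higher in 1, where 25.8% of all tested genes fell and 30.4% rose. The median log2 fold change was -0.534, against -0.02 over all tested genes, and DESeq2 called 10 lower and 0 higher. Kdm6b, a histone demethylase that removes the Polycomb mark, averaged 18.3 ± 2.34 CPM with TGFβ1 and 60.7 ± 8.17 CPM with vehicle (log2 fold change -1.73, SE 0.151, adjusted p = 4.94e-06). Kdm6a, its close relative, fell too (-1.16). Kmt2d, a Trithorax-type histone methyltransferase, averaged 35.1 ± 5.06 CPM with TGFβ1 and 70.1 ± 9.81 CPM with vehicle. Under the length offset 13 of the 24 were lower and 1 higher. With BMP2, 0 of the 24 passed in either direction in edgeR and in DESeq2, and 1 was higher and 2 lower at an unadjusted p under 0.05.

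Retinoic acid is an inducer of Hox genes in the embryo. With BMP2, Cyp26b1, the enzyme that degrades retinoic acid in limb and cartilage, had 65.0, 64.3 and 68.0 CPM, against 18.3 and 16.6 CPM with vehicle (log2 fold change 1.91 with SE 0.118, adjusted p 1.71e-05). The receptor gene Rara rose (0.82, adjusted p = 0.0206) and Aldh1a1, which makes retinoic acid, fell (-1.23, adjusted p = 0.00940), so that 2 of 11 tested genes rose and 1 fell, where 5.33% of all tested genes rose and 6.15% fell. DESeq2 called 1 higher and 1 lower. The adjusted p of Rara was 0.0745 without vehicle library 1 and 0.194 without vehicle library 2, and that of Aldh1a1 was 0.137 without vehicle library 2. With TGFβ1, 6 of 11 rose and 3 fell, where 30.4% of all tested genes rose and 25.8% fell, and DESeq2 called 3 higher and 2 lower. Cyp26b1 then averaged 11.4 ± 0.460 CPM, against 17.5 ± 1.20 CPM with vehicle (log2 fold change -0.61, adjusted p = 0.00256), and Rdh10, an earlier enzyme of synthesis, averaged 28.3 ± 3.66 CPM, against 12.9 ± 2.89 CPM with vehicle (1.14, adjusted p = 0.000628). The binding protein Crabp2 averaged 55.3 ± 30.1 CPM with TGFβ1 and had 1 count in the vehicle libraries. Its deposited length is 1322 nt, in the class of 1000 to 2000 nt whose median log2 fold change with TGFβ1 was 0.871. Under the length offset 5 of the 11 tested genes of the retinoic acid list rose and 3 fell with TGFβ1.

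Limb patterning genes were read beside the Hox genes. Of 15 tested genes of the limb list, 1 rose and 11 fell with TGFβ1, where 30.4% of all tested genes rose and 25.8% fell. DESeq2 called 1 higher and 8 lower, and under the length offset 1 was higher and 9 lower. With BMP2, 1 rose and 2 fell, where 5.33% of all tested genes rose and 6.15% fell. Tbx4, the hind-limb T-box factor, had 3.68 and 4.28 CPM with TGFβ1, against 10.0 and 9.21 CPM with vehicle. Its log2 fold change was -1.27 with an SE of 0.197 (adjusted p 0.000315). Irx5 (-1.77), Irx3 (-1.38), Prrx1 (-1.27) and Islr (-2.43), a limb mesenchyme gene that encodes no transcription factor, fell as well, and Hand2 rose (1.61). With BMP2, Prrx2, a homeobox gene of limb mesenchyme, averaged 29.9 ± 0.971 CPM, against 10.2 ± 2.06 CPM with vehicle (log2 fold change 1.55 with SE 0.156, adjusted p 0.000166), and Tbx15 (-0.65) and Islr (-0.93) fell. Tbx15 had an adjusted p of 0.0852 without vehicle library 2.

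Of 15 tested genes that flank the Hox clusters, 8 rose and 5 fell with TGFβ1, where 30.4% of all tested genes rose and 25.8% fell. With BMP2, 0 rose and 1 fell in edgeR (1 and 1 at an unadjusted p under 0.05, and 0 and 1 in DESeq2), where 5.33% of all tested genes rose and 6.15% fell. Cbx1, a heterochromatin protein gene on the HoxB side, averaged 478 ± 25.0 CPM with TGFβ1 and 76.7 ± 4.61 CPM with vehicle, a log2 fold change of 2.64 that was 1.83 under the length offset. Atp5g3, an ATP synthase gene beyond HoxD, had a log2 fold change of 3.07 that became 0.43, no longer called, under that offset. The neighbour that fell with BMP2 was Calcoco1 (-0.78, adjusted p = 0.0127), with an adjusted p of 0.151 without vehicle library 2.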

How the data were processed

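Raw counts per gene name, deposited by the authors for 7 libraries together with a gene length, were the only values used; the submitters' processing notes list STAR 2.4.2a, featureCounts from Subread, cutadapt, DESeq2 and the mm10 build, without assigning roles. The annotation release and the strand and multi-mapping settings are not stated there. The deposited length equalled the exon union of GENCODE M21 for 39 of 39 Hox genes, and coordinates come from that annotation.

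Counts were tested with edgeR 4.0.16 (quasi-likelihood test, TMM scaling, filterByExpr, all 7 libraries in 1 fit, R 4.3.3), and p-values were adjusted by Benjamini-Hochberg over 13367 genes. The common biological coefficient of variation was 0.133, with 4 residual degrees of freedom. CPM use TMM-scaled library sizes. Libraries held 6747997 to 18047765 counts, and intervals and limits cover counting error only. Alternatives were DESeq2 1.42.0, its size factors, no filter, only the compared groups, a replicate block, offsets for transcript length, and leaving out each library. The offset from the deposited length was added after the data were seen. The scripts were tested on simulated data.

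The members and gene lists (TALE partners, cluster noncoding RNAs, cluster neighbours, Polycomb and Trithorax, retinoic acid, limb, and markers of 7 cell types) were chosen with earlier results of these data known. All Hox genes could be named, but a few genes are not reported here individually and remain in the counts, sums and medians. From each list, up to 4 genes with the smallest p per comparison past the threshold, and any noncoding RNA or TALE gene, could be named. Tbx4, Pitx1, Tbx5 and Cyp26b1 with TGFβ1, and the marker genes, were named with their values in view.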

Additional observations from a re-analysis of the deposited data

How the results depend on the processing

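The BMP2 rise of Hoxc13 and the TGFβ1 calls on Hoxa5, Hoxa7 and Hoxa9 kept direction and call in all 14 alternatives. DESeq2 called 3 Hox genes with TGFβ1 (7 in edgeR), 2 with BMP2 (4 in edgeR) and 9 between BMP2 and TGFβ1 (15 in edgeR), and 951 genes in all with BMP2 (1535 in edgeR). Leaving out 1 library gave 4 to 7 Hox calls with TGFβ1, 1 to 4 with BMP2 and 8 to 14 between them, and 557 to 1698 calls over all genes with BMP2. Deviations from the group means had correlations of -0.152 to -0.004 between same-numbered libraries. These cannot settle whether replicate numbers mark pairs, because the deviations of 2 libraries in a group mirror each other. A replicate block gave 1 Hox call with BMP2, 5 with TGFβ1 and 12 between them, and 771 genes in all with BMP2. Under the principal transcript offset Hoxa6 stood at -2.196 with TGFβ1 over vehicle and 2.15 with BMP2 over TGFβ1, and Hoxd8 at -2.72 and 2.79. Under the deposited length offset Hoxa6 stood at -2.26 and 2.19, and Hoxc10 at 0.0509 with BMP2 over TGFβ1. The cause was not tested. The number of Hox genes detected in vehicle libraries ran from 18 to 29 over the count minimums and left-out libraries tried, against 26. Genes with few counts, such as Hoxb9, Hoxb7 and Hoxd10, are limited by depth.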
